A study of Homo sapiens with 12 samples.

Results

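The 5 genes described here, RAX, SIX3, SIX6, MITF and PMEL, mark the eye field and the optic structures that grow out of it, and they were followed through RNA-seq of 12 samples of human neural cells. They were named from a list, matched to the Ensembl identifiers of the count files, and all 5 were found among 58302 genes. The list was selected on levels and fold changes of these genes in the same samples, so their values are given as a description, without p-values. All samples came from H1, an established human ESC line, and fell into 6 groups of 2. WT cells carried no deletion, and dKO cells (UTX and JMJD3 knockout) lacked the catalytic JmjC part of UTX (KDM6A) and JMJD3 (KDM6B), the demethylases of H3K27me3. The dKO line was made in 2 steps from a JMJD3 knockout clone, so WT and dKO differ by clonal history as well as by genotype. All cells were turned into neural progenitor cells (NPCs) with SB431542 and dorsomorphin, which block TGFb/BMP signalling, and were expanded as neural spheres with FGF2 and EGF. WT-P4 and dKO-P4 were NPCs at passage 4, and WT-P2 and dKO-P2 were NPCs at passage 2, a number that the sample labels do not give and that comes from the study's methods. WT-D28 and dKO-D28 were passage 2 NPCs after 28 days of spontaneous differentiation without FGF2 and EGF, in medium with GDNF, BDNF and cAMP.

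The eye field is a patch of the anterior neural plate in which a set of homeobox genes is switched on together. RAX is needed for the optic vesicle to form, SIX3 holds the forebrain and the eye field in an anterior state, and SIX6 is its relative in the retina, optic stalk and pituitary. The optic vesicle then divides into neural retina and pigment epithelium. MITF, a basic helix-loop-helix leucine zipper factor, drives the pigment epithelium and melanocytes, and PMEL, a known MITF target, builds the fibrils of the melanosome on which pigment is laid down. In cultures patterned without caudalizing signals, anterior NPCs commonly carry such transcripts at low levels.

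Sequencing depth was lowest where the progenitors were youngest. Totals ran from 756942 to 1438807 counts in the 4 passage 2 samples, from 3174410 to 4220037 at passage 4 and from 4082248 to 10601172 at day 28. Expression is given as CPM, the count scaled by the TMM-adjusted size of its library, and 3 counts corresponded to 3.85 CPM in the shallowest sample and 0.298 CPM in the deepest, a floor that covers counting error only. The 2 dKO-D28 samples stood apart from each other, since the chi-square of their counts over genes was 11.3 per degree of freedom, against 1.57 to 2.72 in the other groups. Transcripts of the targeted genes were still counted in dKO cells, and counts cover whole genes, so the deleted part was not measured. KDM6A was at 31.4 and 27.3 CPM in dKO-P4 against 49.8 and 53.3 CPM in WT-P4, and KDM6B at 185 and 181 against 115 and 126 CPM. At day 28 KDM6A had 58.4 and 31.9 CPM in dKO, overlapping WT at 43.7 and 48.4 CPM. KDM6B had 144 and 150 CPM in dKO-D28 against 202 and 186 CPM in WT-D28. POU5F1 and NANOG, which define pluripotent cells, were at 0 in all 12 samples. LIN28A had 86 and 82.8 CPM in WT-P2, 85.7 and 78.6 CPM in dKO-P2 and 30.9 and 33.3 CPM in dKO-P4. It had 31.7 and 79 CPM in dKO-D28 and below 1 CPM in WT-P4 and WT-D28. The progenitor genes SOX1, NES and VIM were counted in every group.

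The start-site windows are shown for the genes whose counts moved together or were summed over several starts. RefSeq (GRCh38.p14) gave windows from 250 bases before to 50 bases after the start for 3 of the 5 genes, RAX, SIX6 and MITF, with 3 windows for MITF. A search on both strands covered 7 short motifs. They were the cAMP response element (CRE, TGACGTCA), the M-box core that MITF can bind (TCATGTG), the E-box (CACGTG), a homeodomain site (TAATTA), the OTX site (TAATCC), the CCAAT box and the TATA box (TATAAA). No match overlapped another in these windows, and capitals mark each match on either strand. The RAX window lies at chr18:59273405-59273704 on the minus strand and SIX6 at chr14:60508896-60509195 on the plus strand. The first MITF window and the third lie at chr3:69739214-69739513 and chr3:69936342-69936641 on the plus strand, the third at the start nearest the 3′ end of the gene.
RAX: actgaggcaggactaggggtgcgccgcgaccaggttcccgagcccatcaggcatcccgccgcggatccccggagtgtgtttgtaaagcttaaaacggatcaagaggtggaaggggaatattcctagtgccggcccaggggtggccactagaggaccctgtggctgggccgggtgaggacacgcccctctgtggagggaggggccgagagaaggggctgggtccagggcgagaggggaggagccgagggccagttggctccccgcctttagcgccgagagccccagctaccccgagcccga
SIX6: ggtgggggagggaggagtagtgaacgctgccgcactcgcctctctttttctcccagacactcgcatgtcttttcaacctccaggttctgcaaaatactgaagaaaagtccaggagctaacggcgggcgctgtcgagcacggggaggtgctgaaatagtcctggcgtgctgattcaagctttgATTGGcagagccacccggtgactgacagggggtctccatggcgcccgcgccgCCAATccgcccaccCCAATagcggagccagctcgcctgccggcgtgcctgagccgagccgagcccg
MITF, the first start: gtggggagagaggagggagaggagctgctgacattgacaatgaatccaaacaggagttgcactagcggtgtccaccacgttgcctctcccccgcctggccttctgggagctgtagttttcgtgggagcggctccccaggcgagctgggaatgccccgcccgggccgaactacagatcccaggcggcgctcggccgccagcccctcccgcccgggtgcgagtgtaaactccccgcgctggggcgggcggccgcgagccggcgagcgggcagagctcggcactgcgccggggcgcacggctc
MITF, the third start: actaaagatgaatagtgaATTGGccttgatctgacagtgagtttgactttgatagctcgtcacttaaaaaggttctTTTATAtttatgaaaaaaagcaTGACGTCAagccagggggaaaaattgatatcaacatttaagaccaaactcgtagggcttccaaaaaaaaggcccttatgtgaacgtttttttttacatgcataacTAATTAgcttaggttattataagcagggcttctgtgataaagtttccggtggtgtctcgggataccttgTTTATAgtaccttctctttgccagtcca
The RAX window, the first MITF window and the second one, at chr3:69763561-69763860 and not shown, held none of the 7 motifs, and the SIX6 window held only the CCAAT box, in 3 copies, 68, 16 and 2 bases before the start. The third MITF window held a CRE 152 bases before the start. Of 35116 windows of the same length, 1.85% held that CRE, 34.6% a CCAAT box, 11.5% the TATA box, 7.26% the E-box, 6.36% the OTX site and 2.92% the M-box core. The third MITF window also held a TAATTA match, present in 4.84% of all windows, and TATA box and CCAAT matches, and its GC content was 37.0% against 70.3% in the first MITF window, 67.0% in RAX and 62.3% in SIX6. Over all windows the median GC content was 58.7%. These matches describe letters, and nothing in the RNA counts shows whether a factor sat on them. The gene-level counts add all MITF starts together, so the start in use in these cells was not measured.

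RAX (ENSG00000134438, hg38 chromosome 18, 59267035 to 59274086, minus strand) was highest in dKO-D28 and next highest in WT-P2. WT-P2 samples had 8.99 and 8.06 CPM and dKO-P2 samples 2.22 and 0.696 CPM, without overlap. At passage 4 both genotypes were near the floor, with 0.33 and 1.27 CPM in WT-P4 and 0.922 and 0.724 CPM in dKO-P4. At day 28 the WT samples had 0.592 and 0 CPM, whereas the dKO samples had 9.06 and 15 CPM, the highest of any group and clear of WT-P2. The 4 groups below these, dKO-P2, dKO-P4, WT-P4 and WT-D28, each overlapped the next in the order of means, although both WT-D28 samples lay below both samples of dKO-P4 and of dKO-P2. RAX had too few reads, 157 over all samples, for the mean of 20 counts that the tested genes had to reach, and its differences come from a fit of every gene with 1 count or more anywhere. The log2 fold change of dKO against WT was -2.51 (standard error 0.75) at passage 2, -0.07 (0.82) at passage 4 and 5.28 (0.52) at day 28. From passage 2 to day 28 it was -4.70 (0.69) in WT and 3.09 (0.62) in dKO, that is, in opposite directions. In counts, the WT-P2 value rests on 7 and 11 reads and the dKO-D28 value on 38 and 79. The dKO-P2 value rests on only 3 and 1 reads and the WT-D28 value on 5 and 0, which limits every difference that uses them.

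SIX3 (ENSG00000138083, chromosome 2, 44941702 to 44946071, plus strand), an upstream homeobox regulator of the anterior forebrain, had the highest mean per kb of exon among the 5 genes in every group, although PMEL was above it in dKO-D28 replicate 2, and its samples of both genotypes overlapped at day 28. WT-P2 samples had 57.8 and 75.5 CPM, and dKO-P2 samples had 97.5 and 91.2 CPM. At passage 4 the WT samples were down to 12.5 and 10.9 CPM and the dKO samples to 47.7 and 38.4 CPM, so WT-P4 was the lowest group and lay below every other sample. At day 28 WT had 75.4 and 71.9 CPM and dKO 72.7 and 50.9 CPM, and these ranges overlapped. The order of group means was dKO-P2, WT-D28, WT-P2, dKO-D28, dKO-P4 and WT-P4, with no gap among WT-D28, WT-P2 and dKO-D28. The log2 fold change of dKO against WT was 0.47 (standard error 0.20) at passage 2, 1.89 (0.22) at passage 4 and -0.26 (0.16) at day 28. From passage 2 to passage 4 it was -2.55 (0.24) in WT and -1.13 (0.18) in dKO, and from passage 2 to day 28 0.11 (0.19) and -0.62 (0.18). With offsets for GC content and gene length the passage 4 difference was 1.64. SIX3 shares 207 exon bases with SIX3-AS1 (ENSG00000236502), a transcript of the opposite strand, and the sources used here do not state whether strand was used in counting, so reads there cannot be told apart. SIX3-AS1 had 0.33 and 0.508 CPM in WT-P4, 2.54 and 2.90 CPM in dKO-P4 and between 3.42 and 6.68 CPM in the 4 day 28 samples.

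SIX6 (ENSG00000184302, chromosome 14, 60509146 to 60512850, plus strand), the SIX3 relative tied to retina and pituitary, went from no reads to over 20 CPM between groups. It had 34.7 and 23.5 CPM in WT-P2 and 10.3 and 18.8 CPM in dKO-P2. The WT-P4 samples had 0.33 and 0.762 CPM, from 1 and 3 reads, against 6 and 5.55 CPM in dKO-P4. No SIX6 read was counted in either WT-D28 sample, at the greatest depth of the study, where 3 counts equal 0.355 and 0.298 CPM, and the dKO-D28 samples had 19.3 and 28.7 CPM. WT-P2 and dKO-D28 overlapped at the top of the order, and dKO-P2, dKO-P4, WT-P4 and WT-D28 followed, each clear of the next. Against a floor of 3 counts over both WT-D28 samples, SIX6 was at least 151-fold higher in dKO-D28 than in WT-D28, or 119-fold from dKO-D28 replicate 1 alone, and at least 170-fold lower in WT-D28 than in WT-P2. The log2 fold change of dKO against WT was -0.94 (standard error 0.37) at passage 2 and 3.27 (0.60) at passage 4, and 4.01 at passage 4 without WT-P4 replicate 2. From passage 2 to passage 4 it was -5.55 (0.53) in WT, or -6.29 without WT-P4 replicate 2, and -1.34 (0.38) in dKO. Within dKO, day 28 stood 0.72 (0.33) above passage 2 on the log2 scale.

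MITF (ENSG00000187098, chromosome 3, 69739456 to 69968336, plus strand), the pigment cell regulator, varied least and had few reads, from 7 to 56 per sample. WT-P2 had 11.6 and 7.33 CPM, dKO-P2 6.65 and 4.87 CPM, WT-P4 2.64 and 3.81 CPM and dKO-P4 3.69 and 4.11 CPM. At day 28 WT had 4.03 and 5.56 CPM and dKO 5.49 and 9.69 CPM. Every group overlapped the next one in the order WT-P2, dKO-D28, dKO-P2, WT-D28, dKO-P4 and WT-P4, so neighbouring levels cannot be separated. The log2 fold change of dKO against WT was -0.64 (standard error 0.51) at passage 2, 0.25 (0.43) at passage 4 and 0.68 (0.31) at day 28, and the last was 0.18 without dKO-D28 replicate 2. In WT it was -1.45 (0.49) from passage 2 to passage 4 and -0.90 (0.43) from passage 2 to day 28. In dKO it was -0.56 (0.48) and 0.42 (0.43), the latter -0.06 without dKO-D28 replicate 2.

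PMEL (ENSG00000185664, chromosome 12, 55954105 to 55973317, minus strand), the melanosome fibril protein, reached its highest level in dKO-D28 and its lowest in WT-D28. The passage 2 samples overlapped, at 16.7 and 18.3 CPM for WT and 19.9 and 11.1 CPM for dKO. At passage 4 the WT samples had 5.61 and 6.09 CPM, below the dKO samples at 15.2 and 13 CPM. At day 28 the WT samples had 2.84 and 2.88 CPM and the dKO samples 37.4 and 97.9 CPM. WT-P2, dKO-P2 and dKO-P4 overlapped in a middle band, and dKO-D28 above and WT-P4 and WT-D28 below lay clear of it. The log2 fold change of dKO against WT was -0.20 (standard error 0.66) at passage 2, 1.27 (0.55) at passage 4 and 4.56 (0.45) at day 28. From passage 2 to day 28 it was -2.62 (0.67) in WT and 2.14 (0.48) in dKO, again in opposite directions. The dKO-D28 samples differed in PMEL by more than the pair of any other group, and without replicate 2 the day 28 difference was 3.70 and the dKO change from passage 2 was 1.28. PMEL shares 89 exon bases with CDK2 on the opposite strand.

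**Figure D1:**
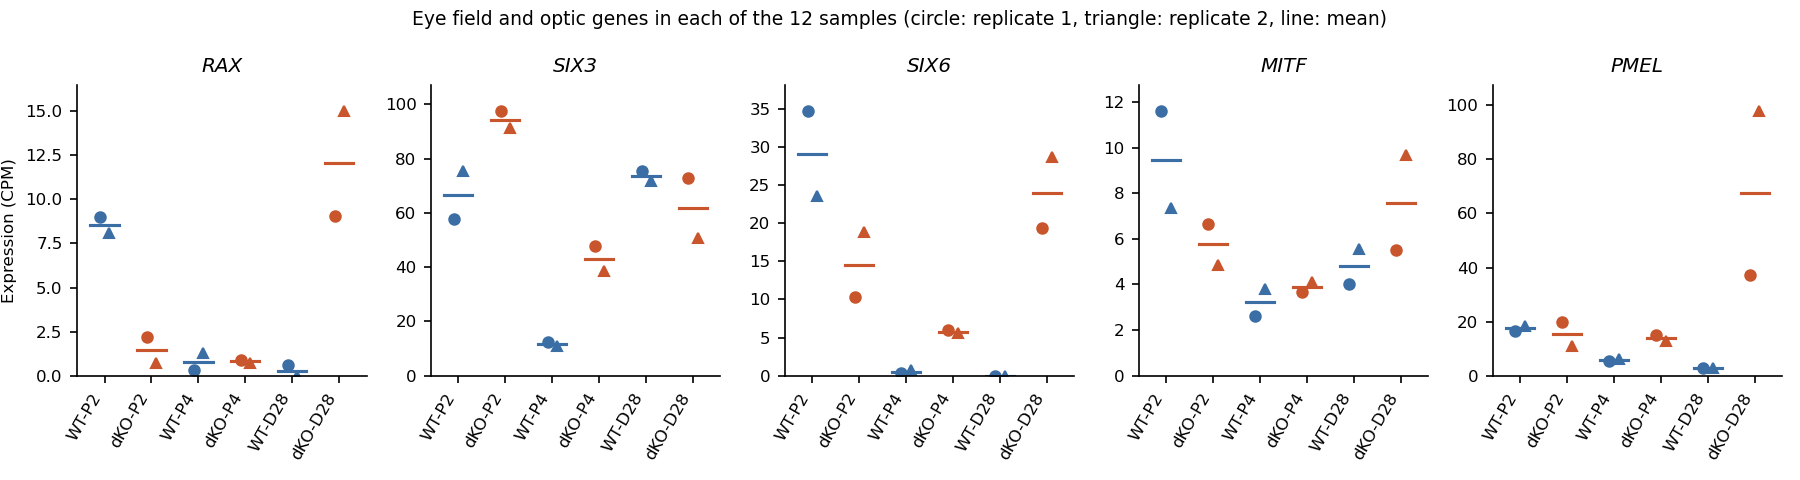
Expression in CPM (vertical axes from 0, one scale per gene) of the 5 genes in the 12 samples by group, WT in blue and dKO in orange, with replicate 1 as a circle, replicate 2 as a triangle and a line at the mean. RAX, SIX6 and PMEL are high in both dKO-D28 samples and near their lowest in both WT-D28 samples, SIX3 dips in WT-P4, and MITF stays between 2.64 and 11.6 CPM.

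Between dKO and WT, the 5 genes had no common direction at passage 2 and lay mostly on the dKO side later. At passage 2, RAX, SIX6, MITF and PMEL had lower and SIX3 higher means in dKO. At passage 4, SIX3, SIX6, MITF and PMEL had higher means in dKO, and RAX had the same level within its error. At day 28, RAX, SIX6, MITF and PMEL had higher means in dKO and SIX3 a lower one. Either dKO-D28 sample alone lay above both WT-D28 samples for RAX, SIX6 and PMEL, and the SIX3 and MITF samples overlapped between genotypes. The call rule was an adjusted p below 0.05 over all 13454 genes that averaged 20 counts or more, together with a fold above 2, and 4 of the 5 genes entered it. At passage 2 none of these 4 was past it, where 1.48% of all genes were, 0.981% higher and 0.498% lower. At passage 4 SIX3 and SIX6 were past it on the dKO side, where 11% of all genes were called higher, 11.1% lower and 22% either way. At day 28 SIX6 and PMEL were, where 12.4% were called higher, 11.7% lower and 24.1% either way. As the genes were picked with these levels in view, nothing is read from such counts.

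**Figure D2:**
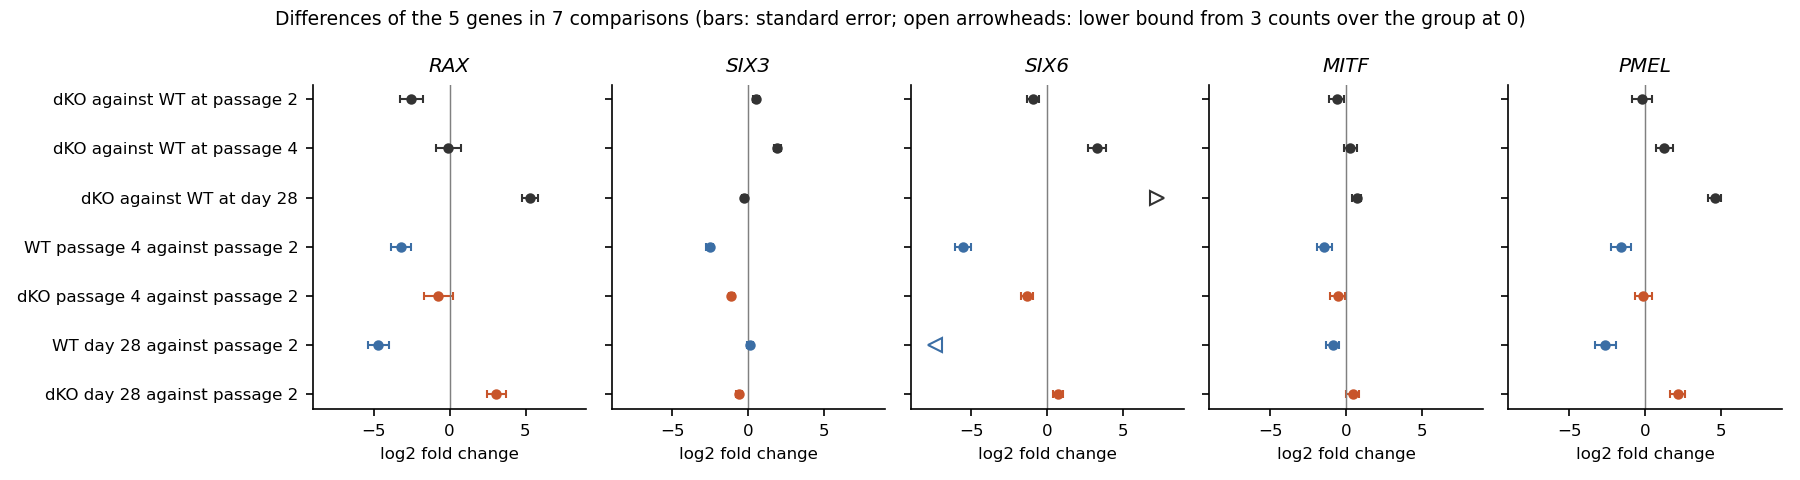
Log2 fold changes (horizontal axes) of the 5 genes in 7 comparisons, with standard errors as bars, differences between genotypes in black, changes within WT in blue and within dKO in orange. Open arrowheads are lower bounds for SIX6, at least 151-fold and at least 170-fold, where WT-D28 was at 0. At day 28 RAX and PMEL also lie far on the dKO side, at 5.28 and 4.56, and SIX3 lies near 0.

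In WT all 5 genes had lower means at passage 4 than at passage 2. SIX3, SIX6 and MITF were past the call rule on the lower side, where 8.93% of all genes were called lower, 9.57% higher and 18.5% either way. Day 28 cells came from passage 2 NPCs and did not go through passage 4. At day 28 SIX6 and PMEL were past the rule on the lower side, against 11.3% of all genes lower, 12.3% higher and 23.5% either way. SIX3 was at its passage 2 level within its error. In dKO the same step from passage 2 to passage 4 was smaller for each of the 5 genes. SIX3 and SIX6 were past the rule on the lower side, where 4.37% of all genes were called lower, 3.61% higher and 7.98% either way. At day 28 PMEL alone of the 4 was past it, on the higher side, against 2.5% of all genes higher, 2.5% lower and 5% either way. WT-D28 and WT-P4 are each set against the same WT-P2 samples, and the dKO groups against the same dKO-P2 samples, so these columns share their reference.

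The change over differentiation differed most between the genotypes for RAX, SIX6 and PMEL. The interaction, the dKO change from passage 2 to day 28 minus the WT change on the log2 scale, was 4.76 (standard error 0.84) for PMEL, 1.32 (0.60) for MITF and -0.73 (0.26) for SIX3, and for SIX6 the fitted value rests on the WT-D28 zeros and is not given. For RAX, in the fit of every gene with 1 count or more anywhere, it was 7.79 (0.92) over differentiation and 2.44 (1.16) over passage. The first uses 3 and 1 reads in dKO-P2 and 5 and 0 in WT-D28. The second uses dKO-P2 too, with 1 and 5 reads in WT-P4 and 4 and 3 in dKO-P4. Of the 4 genes that entered the call rule, SIX6 and PMEL were past it over differentiation. Of all genes 10.7% were called higher there, 9.48% lower and 20.2% either way. The interaction over passage was 4.21 (0.71) for SIX6, or 4.96 without WT-P4 replicate 2, 1.42 (0.30) for SIX3, 1.46 (0.87) for PMEL and 0.89 (0.67) for MITF. SIX3 and SIX6 were past the rule, where 7.61% were called higher, 7.71% lower and 15.3% either way. The PMEL interaction over differentiation was 3.90 without dKO-D28 replicate 2.

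Levels of different genes can be set against each other only per kb of exon. On that scale SIX3 led in WT-P2 with 24.6 ± 4.62 CPM per kb (SD, n = 2), followed by SIX6 with 11.2 ± 3.06, PMEL with 4.77 ± 0.316, RAX with 2.25 ± 0.172 and MITF with 1.27 ± 0.402. In WT-D28 SIX3 was at 27.2 ± 0.919 CPM per kb, and the other 4 genes lay below 1 CPM per kb, with PMEL at 0.779 ± 0.00736 and MITF at 0.646 ± 0.146. In dKO-D28 SIX3 was at 22.8 ± 5.69, PMEL at 18.4 ± 11.6, SIX6 at 9.26 ± 2.56, RAX at 3.18 ± 1.11 and MITF at 1.02 ± 0.401 CPM per kb. RAX, SIX6 and PMEL were thus each higher per kb in both dKO-D28 samples than in both WT-D28 samples, while SIX3 and MITF overlapped. In these bulk samples fewer cells of a type and less RNA per cell cannot be told apart.

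Across the 12 samples RAX, SIX6 and PMEL had the highest correlations with each other and SIX3 the lowest. Pearson's r of log2(CPM + 1) was 0.84 for RAX with PMEL, 0.84 for SIX6 with PMEL and 0.80 for RAX with SIX6. For MITF it was 0.78 with RAX, 0.72 with SIX6 and 0.59 with PMEL, and for SIX3 0.52 with MITF, 0.46 with SIX6, 0.25 with RAX and 0.24 with PMEL. These are descriptions over 12 samples that form 6 groups and share their libraries, so replicates are not independent points. By the same measure BCAT1, which transfers amino groups of branched-chain amino acids, was close to SIX6 with r = 0.977, and TGIF2, a homeodomain repressor, with 0.976. BCAT1 had group means of 309 CPM in WT-P2, 31 CPM in WT-P4, 26.2 CPM in WT-D28 and 295 CPM in dKO-D28, so it was low and high in the same groups as SIX6. Closest to RAX were IKZF2 (0.952), LFNG (0.941) and BRD7 (0.931), and closest to SIX3 were ATF4 (0.975), EPHB3 (0.970) and CCN1 (0.968). Closest to MITF were PDE3B (0.922), NAA16 (0.910) and ZC3H12B (0.906), and closest to PMEL were PHGDH (0.970), CD74 (0.953) and NONO (0.951). MITF is not among the 3 genes closest to PMEL, its known target, and the 2 had r = 0.59.

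**Figure D3:**
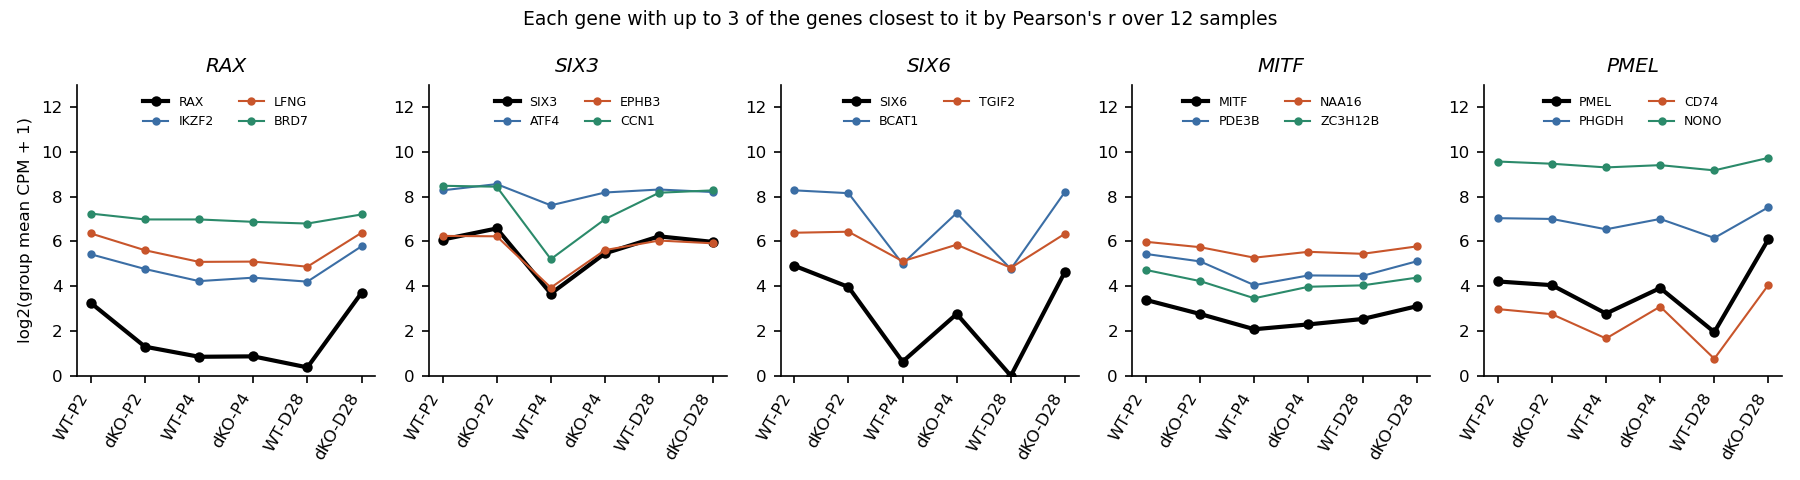
Group means on the log2(CPM + 1) scale (vertical axis) over the 6 groups for each of the 5 genes in black. In colour are up to 3 of the genes with the highest Pearson's r to it, the 5 themselves left out. BCAT1 follows SIX6 through the drop in WT-P4 and WT-D28 at a higher level, whereas the genes closest to RAX and MITF keep the shape at a higher level and with smaller changes.

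Other genes of eye development changed in both directions, with most calls at passage 4 and day 28. The lists held 87 genes besides these 5, of which 41 were tested. They were chosen with earlier results of these data known. Some genes reached the filter through the groups where they are high, as ALDH1A1 did through dKO and RPE65 through WT-D28. The counts, medians and p-values of list genes are therefore descriptions. At day 28, 20 of the 41 were called higher and 5 lower in dKO, with a median log2 fold change of 0.90 against 0 over all genes. Of all genes 12.4% were called higher and 11.7% lower. PAX6, a master regulator of the eye, is also among the neural progenitor markers used here. It had 11.7 and 11.5 CPM in WT-D28 and 187 and 351 CPM in dKO-D28. That is a difference of 4.53 on the log2 scale with standard error 0.28 and a Benjamini-Hochberg adjusted p of 4.1e-07 in edgeR's quasi-likelihood test. The NPC samples of both genotypes had 175 to 299 CPM of PAX6. The dKO change from passage 2 to day 28 was 0.50 (0.24) and was not called. ALDH1A3 and ALDH1A1, enzymes of retinoic acid synthesis, were at 0 in both WT-D28 samples and at least 373-fold and at least 323-fold higher in dKO-D28. From dKO-D28 replicate 1 alone, a value added after seeing the data, the ALDH1A1 bound was 128-fold. EYA2, a cofactor of SIX4, rose by 4.33 and DCT, a melanin enzyme, by 4.72 on the log2 scale. ISL1, a factor of retinal ganglion cells and motor neurons, had a log2 fold change of -5.14, and RPE65, the visual cycle isomerase, was lower with 3 reads in dKO-D28 and a count ratio of 92.8 (95% counting interval 31.6 to 451). These calls held under all 17 alternatives. LHX2 and OTX2, eye field factors like RAX, rose by 1.15 each, but both calls were lost without dKO-D28 replicate 2, and OTX2 also with GC and length offsets.

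At passage 2 the lists gave 5 calls, 1 higher and 4 lower in dKO, or 0 higher and 4 lower with GC and length offsets, with a median of -0.07 against 0 over all genes, of which 0.981% were called higher and 0.498% lower. FGF19 rose by 1.96 on the log2 scale, while ALDH1A3 changed by -1.95, NR2E1, a retinal and neural stem cell receptor, by -1.56, DACH1 by -1.20 and the Wnt antagonist SFRP1 by -1.10. NR2E1 kept its call under all 17 alternatives and FGF19 under 5, its adjusted p reaching 0.321 by edgeR's quasi-likelihood test. ALDH1A3 and SFRP1 lost theirs without WT-P2 replicate 1 or dKO-P2 replicate 2, and DACH1 also without dKO-P2 replicate 1. The ALDH1A3 call was also lost when only the samples compared were fitted. At passage 4 there were 15 higher and 12 lower, with a median of 0.05 against 0.02 over all genes, of which 11% were called higher and 11.1% lower. SIX4, a SIX3 relative, rose by 3.69 and LRAT, which esterifies retinol, by 4.04, and ALDH1A1 was at least 50.4-fold higher. The ALDH1A1 call was lost without any 1 of the 4 samples, and also when every gene with 1 count or more anywhere was fitted. NR2E1 changed by -5.07, DCT by -3.75, RPE65 by -3.41 and EYA4 by -2.31. DCT therefore lay on the WT side at passage 4 and on the dKO side at day 28, whereas the PMEL means were higher in dKO at both.

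In WT more list genes were called lower than higher against passage 2. From passage 2 to day 28, 4 were higher and 15 lower, with a median of -0.83 against 0.04 over all genes, of which 12.3% were called higher and 11.3% lower. From passage 2 to passage 4, 5 were higher and 13 lower, with a median of -0.69 against 0.01 over all genes, of which 9.57% were called higher and 8.93% lower. At day 28 ALDH1A3 was at least 1070-fold lower, and SFRP1 changed by -5.42, PAX6 by -4.57, EYA2 by -3.34 and SIX4 by -2.75. RPE65 and GPNMB, a PMEL relative, were higher, with count ratios of 21.0 (7.16 to 102) and 23.6 (4.19 to 937), and GPNMB lost its call without WT-P2 replicate 2 (adjusted p 0.0704 in edgeR's test). At passage 4 ALDH1A3 changed by -5.32, FZD5, a retinal Wnt receptor, by -4.15, VAX2 by -3.23, VAX1 by -2.97, SIX4 by -2.56 and EYA2 by -2.46, and DCT rose by 3.40. In dKO, day 28 had 5 higher and 5 lower than passage 2, with a median of 0.05. Passage 4 had 3 higher and 13 lower, with a median of -0.63, against 0.01 over all genes in both. The shares of all genes were 2.5% higher and 2.5% lower at day 28 and 3.61% higher and 4.37% lower at passage 4. At day 28 DCT rose by 1.70, DACH1 by 1.54 and SERPINF1, secreted by the pigment epithelium, by 1.3, GPNMB had a count ratio of 9.15 (3.04 to 45.2) with a call kept in 4 of 17 alternatives (adjusted p up to 0.262 in edgeR's test), and ISL1 changed by -2.45, FGF19 by -1.80, FZD5 by -1.80 and VAX1 by -1.60. Fitting only the samples compared, the ISL1, FGF19, FZD5 and VAX1 calls were lost, with an adjusted p of 0.0784 for VAX1 in edgeR's test. The ISL1 and FZD5 calls were lost without dKO-P2 replicate 1 and the FGF19 and FZD5 calls without dKO-P2 replicate 2, with adjusted p up to 0.0745, 0.189 and 0.0945 for ISL1, FZD5 and FGF19 in edgeR's test. At passage 4 LRAT rose by 4.07 and OTX1 had a count ratio of 85.4 (23.5 to 707). The OTX1 call was lost without any 1 of the 4 samples, and also when every gene with 1 count or more anywhere was fitted. FZD5 changed by -4.72, NR2E1 by -4.43, ALDH1A3 by -2.96, FGF19 by -2.71 and SFRP1 by -2.13.

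**Figure D4:**
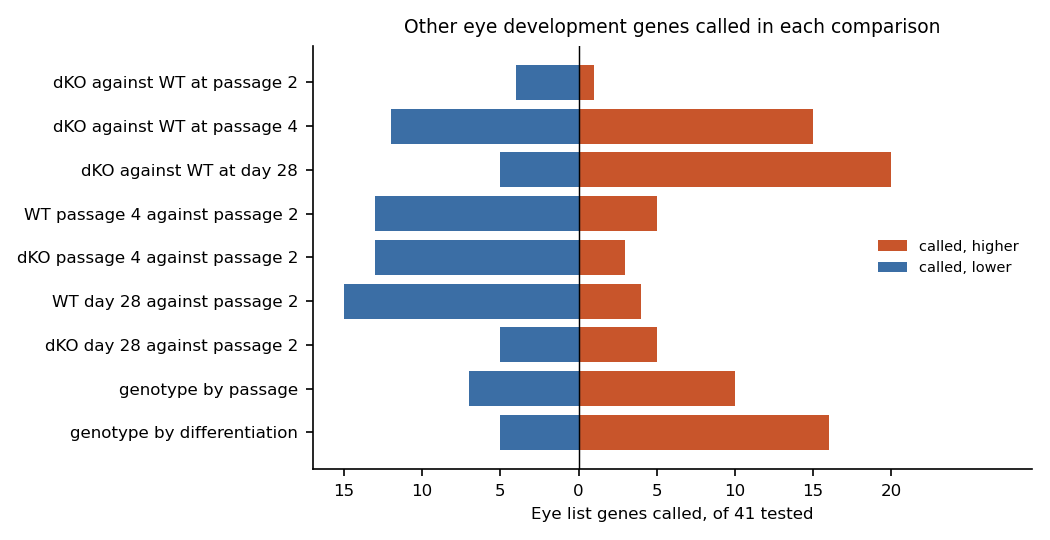
Number of the 41 tested eye list genes (horizontal axis, the 5 described genes left out) called lower, to the left in blue, or higher, to the right in orange, in 9 comparisons. The day 28 comparison of genotypes has 20 higher and 5 lower, whereas the 2 WT comparisons with passage 2 lean to the lower side with 15 and 13.

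Relatives of the 5 genes did not all share their levels. SIX4 had 1.89 and 2.09 CPM in WT-D28 and 28.9 and 40.3 CPM in dKO-D28, SIX5 had 37.1 and 38.1 against 70.4 and 90.1 CPM, and SIX2 stayed at or below 0.739 CPM in all samples. TFE3, of the MITF family, had 87.0 and 82.8 CPM in WT-D28 and 48.9 and 50.2 CPM in dKO-D28. That log2 fold change of -0.77 was not called, and the MITF samples overlapped between genotypes. TFEB and TFEC did not exceed 4.59 CPM. PAX2 of the optic stalk had 8.53 and 8.21 CPM in dKO-P4 and at most 2.95 CPM elsewhere. Of the pigment genes beside MITF and PMEL, TYR, which carries out the first step of melanin synthesis, was at most 0.57 CPM, TYRP1 2.85 CPM and MLANA 1.02 CPM in any sample. DCT, by contrast, had 31.5 and 51.7 CPM in dKO-D28 and 1.66 and 1.49 CPM in WT-D28. The 14 melanosome genes besides these 5 summed to 252 to 259 CPM in dKO-D28 and 327 to 335 CPM in WT-D28. MYO5A, a broadly expressed motor, was the largest single contributor, with 131 and 105 CPM in dKO-D28 and 262 and 263 CPM in WT-D28. Without it, an alternative chosen after seeing the data, the other 13 summed to 128 and 147 CPM in dKO-D28. They summed to 65.1 and 71.4 CPM in WT-D28, so the dKO sums were higher, the same side as PMEL.

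Markers of other cells moved with the groups. For the calls below, 11% of all genes were called higher and 11.1% lower in dKO at passage 4. At day 28 the shares were 12.4% higher and 11.7% lower. The 9 melanocyte and neural crest markers summed to 145 to 171 CPM in dKO-D28 and 212 to 229 CPM in WT-D28, with the crest and melanocyte factor SOX10 at 0.238 and 0.38 CPM in dKO-D28 and FOXD3 at 0 there. Gene by gene the list went the other way, since of 7 tested markers 5 were called higher and 1 lower in dKO-D28, with a median log2 fold change of 3.41, and PAX3 was at 0 in WT-D28 and at least 119-fold higher in dKO-D28, or 30.9-fold from replicate 1 alone. Within dKO-D28, PAX3, TFAP2A and ERBB3 of that list followed PMEL in being higher in replicate 2, with 5.01 and 30.8, 5.72 and 31.7 and 21.9 and 47.9 CPM, and EDNRB went the other way with 42.5 and 10.1 CPM. Of the neuronal and astrocyte markers all 5 and all 4 tested were called lower in dKO at both passage 4 and day 28. The 6 neuronal markers summed to 3340 to 3350 CPM in WT-D28 and 596 to 1030 CPM in dKO-D28, and to 3960 to 4510 in WT-P4 and 764 to 796 in dKO-P4, and the 6 progenitor markers to 4400 to 4460 CPM in WT-D28 and 3220 to 4080 CPM in dKO-D28. The 4 astrocyte markers summed to 1810 to 1970 CPM in WT-P4 and to 27.4 to 34.5 CPM in dKO-P4. SLC1A3 made up most of the WT-P4 sum, with 1760 and 1920 CPM, and GFAP, S100B and AQP4 had at most 27.1 CPM each there. The 5 mesenchyme markers had higher sums in dKO, with 1660 to 1670 against 206 to 219 CPM at passage 4 and 276 to 361 against 101 to 108 CPM at day 28. Of the 4 tested, 3 were called higher and 0 lower in dKO at passage 4, and 3 higher and 1 lower at day 28, where COL3A1 had 18.4 and 7.22 CPM in dKO and 51.5 and 54.9 CPM in WT. The 7 hypothalamic markers summed to 363 to 372 CPM in WT-D28 and 149 to 187 CPM in dKO-D28, and NKX2-1 of that list had 355 and 349 against 1.91 and 0.19 CPM, while the other 2 tested genes of the list were called higher in dKO-D28. The part of these markers in the levels of RAX, SIX3, SIX6, MITF and PMEL was not tested.

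**Figure D5:**
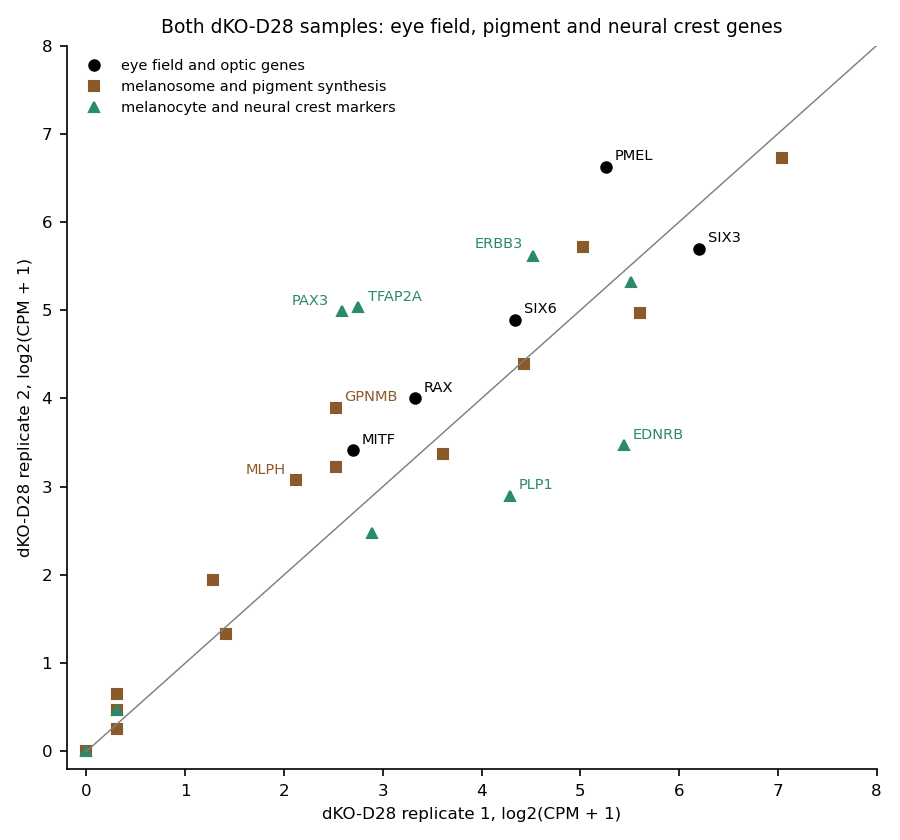
Expression in the 2 dKO-D28 samples, replicate 1 on the horizontal and replicate 2 on the vertical axis, both as log2(CPM + 1), for the 5 genes (black circles), melanosome genes (brown squares) and melanocyte and neural crest markers (green triangles), with a line of equality and names for the 5 genes and for genes off the line by over 0.9. PMEL lies above the line with PAX3, TFAP2A and ERBB3, SIX3 lies below it, and EDNRB lies farthest below.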

How the data were processed

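RNA was sequenced from 12 samples of H1 cells, 2 in each of 6 groups named by the sample labels. The labels give no batch and do not say that replicates were separate cultures, so the spread between them may be technical. Libraries from TRIzol-extracted RNA were made with a TruSeq kit and sequenced on a NextSeq instrument. Per the labels and methods, the authors mapped reads to hg38 with HISAT2 (2.0.4), sorted them with SAMtools (1.3.1) and deposited the raw counts per Ensembl gene made by htseq-count (0.6.0), with no normalization. The submitters' notes also name DESeq and EDASeq, which did not enter these counts. Gene-level counts merge isoforms, and the handling of overlapping genes and of strand is not given in the sources used here.

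Identifiers were matched to GENCODE v44, in which 57532 of 58302 genes (98.7%) were found. edgeR (4.0.16) with TMM scaling and robust quasi-likelihood fits modelled the 6 group means over all 12 samples for the 13454 genes averaging 20 counts or more, with Benjamini-Hochberg adjustment over all of them. A call needed an adjusted p below 0.05 and a fold above 2. A gene can reach the mean of 20 counts through a group in which it is high. The fit was tested on simulated data. CPM is the count per TMM-scaled library, and per kb values divide by exon length. An exact permutation test of 2 against 2 samples cannot go below p = 0.333, so none was used for single genes. Bounds use 3 counts over a group, and count ratios carry exact 95% intervals for counting error only.

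The 5 members and all gene lists were chosen with earlier results of these data known. Named were the 5 genes and, for each comparison, up to 8 called list genes by size of fold change. A set of relatives and marker genes was named whatever their values. For each of the 5, the 3 tested genes with the highest Pearson's r to it were named too, with the 5 themselves left out. Some genes that this rule names are not reported here, though counts over the lists include them. Alternatives changed the tool (DESeq2 1.42.0), the filter, the samples fitted, GC and length offsets, the replicate block, the threshold and each sample in turn. Start-site windows came from RefSeq (GRCh38.p14).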

Additional observations from a re-analysis of the deposited data

Results flagged for a closer look

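Of the tested genes of the eye lists, 21 had a change from passage 2 to day 28 that differed between dKO and WT, tested with edgeR's quasi-likelihood test of the interaction over all genes. The values given, for those reported here, are the dKO change minus the WT change on the log2 scale. Among transcription factors and signals of the eye field and retina the difference was 5.08 for PAX6, 1.52 for LHX2, 1.1 for OTX2, 4.90 for SFRP1, 12.86 for ALDH1A3 and 2.65 for EFNB2, and it was -4.05 for FGF19 and -5.11 for ISL1. Among the relatives and cofactors of SIX3 and SIX6 it was 3.14 for SIX4, 4.24 for EYA2, 2 for EYA4 and 4 for DACH1. Among pigment genes it was 3.92 for DCT, 1.53 for RAB27A, 1.92 for RAB38, -1.15 for MYO5A and -1.17 for TFE3, the MITF relative. Among genes of the pigment epithelium it was 2.31 for MERTK, 2.13 for SERPINF1 and -6.43 for RPE65. The values for ALDH1A3 and RPE65 rest on groups with 0 to 3 reads and depend on the prior count of the fit. Over all genes 20.2% were called for this interaction, 10.7% higher and 9.48% lower. RAB27A kept its call in 10 of 17 alternatives, with losses under DESeq2 among others, RAB38 in 14, OTX2 in 15 and DCT, RPE65, MYO5A and TFE3 in 16 each, with adjusted p up to 0.117, 0.119, 0.0918 and 0.0822 for RAB27A, RAB38, DCT and RPE65 in edgeR's or DESeq2's test. OTX2 and MYO5A lost theirs without dKO-D28 replicate 2, and OTX2 also with GC and length offsets. TFE3 lost its call without dKO-P2 replicate 2, RPE65 without dKO-P2 replicate 1 and DCT without WT-P2 replicate 2. RAB38 also needed WT-P2 replicate 2, along with dKO-P2 replicate 1 and WT-D28 replicate 1.

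The change from passage 2 to passage 4 differed between the genotypes, by the same test, for 17 genes. Among those reported here the difference was 1.81 for OTX2, 1.43 for VAX1, 2.47 for VAX2, 2.36 for ALDH1A3, 1.79 for EPHB3, 2.39 for SERPINF1, 2.73 for SIX4, 1.82 for SIX5 and 2.23 for DACH1. It was -3.51 for NR2E1, -2.78 for FGF19, -4.55 for DCT, -1.42 for MYO5A, -3.44 for RPE65 and -1.80 for EYA4. Over all genes 15.3% were called for this interaction, 7.61% higher and 7.71% lower. RPE65 kept its call in 8 of 17 alternatives, VAX1 in 9, ALDH1A3 in 13 and VAX2 in 15, with adjusted p up to 0.428, 0.0946, 0.132 and 0.114 in edgeR's or DESeq2's test. VAX2 lost its call without WT-P2 replicate 2 or WT-P4 replicate 2, and ALDH1A3 without WT-P2 replicate 1, either WT-P4 sample or dKO-P4 replicate 1. DCT and EYA4 had opposite signs over passage and over differentiation, and both interactions use the same passage 2 samples.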

How the results depend on the processing

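Of 666 log2 fold changes of the 4 tested genes under the alternatives, 618 moved by less than the replicate spread, 48 moved by more and 0 called values turned round. Of 180 counts of called list genes, 161 stayed within 1.5 times the reported count. The 19 others were these. Fitting only the samples compared gave 4 for dKO day 28 against passage 2. Testing all genes with any count gave 43 for dKO against WT at day 28, and 31 for WT and 17 for dKO at day 28 and 26 for dKO at passage 4, each against passage 2, with all 87 list genes open to testing. Asking for 10 counts in every sample left 25 list genes and gave 3, 17 and 14 for dKO against WT at passage 2, passage 4 and day 28. It gave 8 and 6 for WT and dKO at day 28, 10 and 7 at passage 4, and 11 and 10 for the interactions over differentiation and passage. This filter removed SIX6 and MITF. Leaving out 1 sample gave 1 to 6 calls at passage 2, 5 to 14 for dKO day 28 and 10 to 18 for dKO passage 4 against passage 2.

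With the replicate number as a block there were 4, 26 and 26 calls for dKO against WT at passage 2, passage 4 and day 28, 18 and 10 for WT and dKO at day 28, 18 and 16 at passage 4, and 21 and 17 for the interactions. Deviations of same-numbered samples had a mean r of 0.018 over pairs of groups, from -0.055 to 0.182, the highest for WT-P4 with dKO-P4. The numbers thus give no pairing over all groups, and a pairing within passage 4 alone was not tested. DESeq2 gave 5 calls at passage 2 and 25 at day 28. Depth limits RAX and MITF most, whose passage 2 samples had 1 to 11 reads each. With 2 samples a group, errors rest on the spread shared over all groups, and a group left with 1 sample is taken to vary like the others. The dKO-D28 samples differed most from each other, so errors and p-values of comparisons with dKO-D28 may be too small. Batch and group cannot be told apart.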

Other observations

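The gene families around SIX3 and SIX6 lay mostly on the dKO side at day 28, and the genes named here were chosen after their values were seen. Of 7 tested genes of the families of SIX4, EYA2 and DACH1, 5 were called higher and 0 lower in dKO-D28, with a median log2 fold change of 1.48 against 0 over all genes and 12.4% of all genes called higher. DACH1, which binds EYA proteins, rose by 2.80 and EYA4 by 1.48, beside SIX4, SIX5 and EYA2. EYA2 had 2.13 and 1.59 CPM in WT-D28 and 29.3 and 45.2 CPM in dKO-D28, and DACH1 had 17.8 and 17.2 against 94.7 and 147 CPM. The SIX5 call, a rise of 1.1, was lost without dKO-D28 replicate 2.

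Genes of the pigment epithelium and the melanosome went both ways at day 28, when 12.4% of all genes were called higher and 11.7% lower. Of 6 tested melanosome genes, 3 were called higher in dKO-D28, DCT, RAB38 and RAB27A, and 1 lower, MYO5A, which moves melanosomes along actin and had 262 and 263 CPM in WT-D28 and 131 and 105 CPM in dKO-D28. RAB38, which delivers pigment enzymes, had 2.25 and 4.07 CPM in WT-D28 and 20.5 and 20 CPM in dKO-D28, without overlap. Of 5 tested pigment epithelium genes, MERTK, the receptor with which that epithelium takes up photoreceptor debris, rose by 2.13 and SERPINF1 by 1.98, while RPE65 was lower.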
